A study of Mus musculus with 6 samples.

Results

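The fibrinogen locus of the mouse, with the genes Fgg, Fga and Fgb, was followed in a DNase I hypersensitivity experiment on liver. Union regions were made by merging the hotspots of all libraries that shared at least 1 bp. The locus was taken as the union regions that overlap a fixed window of 100 kb on chromosome 3 of the build mm9 (82.78 to 82.88 Mb), and 18 of 75169 regions did so. They run from 82804120 to 82878010 and are numbered 1 to 18 along the chromosome. The locus was selected on the fasted and fed densities of these same libraries, which were known when it was picked. All differences between fasted and fed livers at the locus are therefore a description, and no test is drawn from them.

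The study compared livers of C57BL/6 mice, an inbred strain, after 24 h of fasting (3 libraries) with livers of C57BL/6 mice fed ad libitum (3 libraries). All mice lived under a 12 h light and dark cycle and were killed at 6 am, when the lights came on. The age, the sex and whether each replicate came from a separate animal are not stated, so the spread between replicates may be partly technical. DNase I is a nuclease that digests accessible chromatin, and a local excess of sequenced ends, called a hotspot, marks open DNA such as promoters and enhancers. The liver is a mixture of cells, and a site open in fewer nuclei cannot be told apart from a site less open in every nucleus. The labelled tissue was not checked against marker genes, since gene positions on mm9 were not used here.

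Fibrinogen is the plasma protein that thrombin turns into fibrin, the fibre of a blood clot. Hepatocytes make it from an alpha, a beta and a gamma chain, which Fga, Fgb and Fgg encode. The genes belong to the acute phase response: interleukin 6, acting through STAT3, and glucocorticoids raise their transcription in the liver, and HNF1 and C/EBP proteins are known activators of fibrinogen promoters from work on rat and human genes. In the RefSeq annotation of GRCm38 they are neighbours among the protein-coding genes, in the order Fgg, Fga and Fgb. Lrat, which makes retinyl esters, and Rbm46 precede them, and Plrg1, which encodes a splicing protein, follows. Fgg and Fga are transcribed in the plus direction and Fgb in the minus direction.

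The stretch just upstream of each gene is shown because these promoters are where the activators named above act. Each holds the 250 bases before the annotated start (RefSeq, GRCm38.p6), 5′ to 3′ on the gene's own strand, and all 3 genes were found in the table. They lie at chr3:83007474-83007723 on the plus strand (Fgg), chr3:83025903-83026152 on the plus strand (Fga) and chr3:83049864-83050113 on the minus strand (Fgb). These GRCm38 positions were not converted to mm9, so no hotspot is assigned to a gene or a promoter here. Capitals mark matches to the motifs searched.
Fgg: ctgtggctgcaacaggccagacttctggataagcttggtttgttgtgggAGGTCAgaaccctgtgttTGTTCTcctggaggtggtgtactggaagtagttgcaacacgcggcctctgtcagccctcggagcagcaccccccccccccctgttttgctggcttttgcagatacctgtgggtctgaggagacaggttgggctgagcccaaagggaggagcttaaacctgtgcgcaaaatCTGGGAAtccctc
Fga: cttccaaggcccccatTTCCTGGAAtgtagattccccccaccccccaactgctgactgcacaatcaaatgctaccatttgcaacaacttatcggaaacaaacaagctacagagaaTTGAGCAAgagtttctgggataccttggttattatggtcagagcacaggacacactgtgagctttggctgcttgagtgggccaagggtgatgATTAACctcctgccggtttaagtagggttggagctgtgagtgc
Fgb: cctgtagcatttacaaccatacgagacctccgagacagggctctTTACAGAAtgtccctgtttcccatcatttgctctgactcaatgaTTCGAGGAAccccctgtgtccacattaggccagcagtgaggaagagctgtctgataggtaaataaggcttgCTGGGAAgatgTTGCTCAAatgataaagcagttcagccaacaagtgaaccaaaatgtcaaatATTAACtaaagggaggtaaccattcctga

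Fga and Fgb shared matches to 3 of the motifs searched, and Fgg and Fgb shared 1. The upstream stretch of Fgg held the interleukin 6 response element CTGGGAA at bases 13 to 7 before the start, TGTTCT, a shortened glucocorticoid receptor motif, at bases 183 to 178, and AGGTCA, a shortened PPAR motif, at bases 201 to 196. That of Fga held GTTAAT, a shortened HNF1 motif, on the opposite strand at bases 43 to 38, the C/EBP motif TTNNGNAA at bases 135 to 128 and the STAT3 motif TTCNNNGAA at bases 234 to 226. That of Fgb held the same shortened HNF1 motif on the opposite strand at bases 29 to 24, CTGGGAA at bases 91 to 85 and TTCNNNGAA at bases 162 to 154. The Fgb stretch also held TTNNGNAA on the opposite strand, at bases 80 to 73 and 206 to 199. The 13 motifs were searched with exact letters on both strands, and the 11 matches did not overlap each other.

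Most of these motifs are common in promoters. Over 32851 promoter stretches of the same length, TTNNGNAA stood in 36.8%, TGTTCT in 16.1%, AGGTCA in 14.0%, CTGGGAA in 9.10%, TTCNNNGAA in 7.02% and GTTAAT in 6.43%. The others searched matched none of the 3 stretches. They were the FOXA motifs TGTTTAC (3.17% of promoters) and TGTTTGC (4.30%), the HNF4 motif CAAAGTCCA (0.384%), the CREB motif TGACGTCA (1.55%) and the TATA box TATAAA (12.4%). The full HNF1 motif (GTTAAT, any base, ATTAAC; 0.00913%) and the full glucocorticoid receptor motif (GNACA, any 3 bases, TGTNC; 0.387%) did not match either. A match is a string of letters and not a bound site.

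The fibrinogen locus was densely packed with strong open sites. Of its 18 regions, 13 were called in all 6 libraries, against 49.3% of all union regions. Height here means the maximum tag density of a region's highest hotspot in a library, a coverage signal in the authors' own units, which no label or header explains. The median height of the 13 shared regions was 57.9, against 23.7 over all 37044 shared regions, and 6 of the 13 stood above the 90th percentile of shared regions while 2 stood below the median. Regions 1 to 17 lie within 55.7 kb, with gaps of 0.1 to 5.50 kb, and region 18 follows after 17.6 kb. Of 12382 tiles of 100 kb that held a shared region, the median tile held 2, and 34 tiles held 13 or more.

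The nearest flanks of the locus held few open sites, and those called in all libraries were weak. The 100 kb on either side together held 4 regions, of which 2 were called in all libraries, with mean heights of 5.75 and 6.96. The 1 Mb on either side held 60 regions, 30 of them shared, with a median height of 23.2, close to that of all shared regions. The nearest region before the window ends 98.3 kb outside it and was called in fasted replicate 2 (1.97) and in fed replicates 1 and 3 (3.68 and 3.66). The nearest after it begins 4.44 kb outside and was called in fasted replicate 2 (15.8) and fed replicates 2 and 3 (28.1 and 23.3). Just inside the edges lie region 1, 24.1 kb from the left edge, and region 18, 1.99 kb from the right edge.

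**Figure D1:**
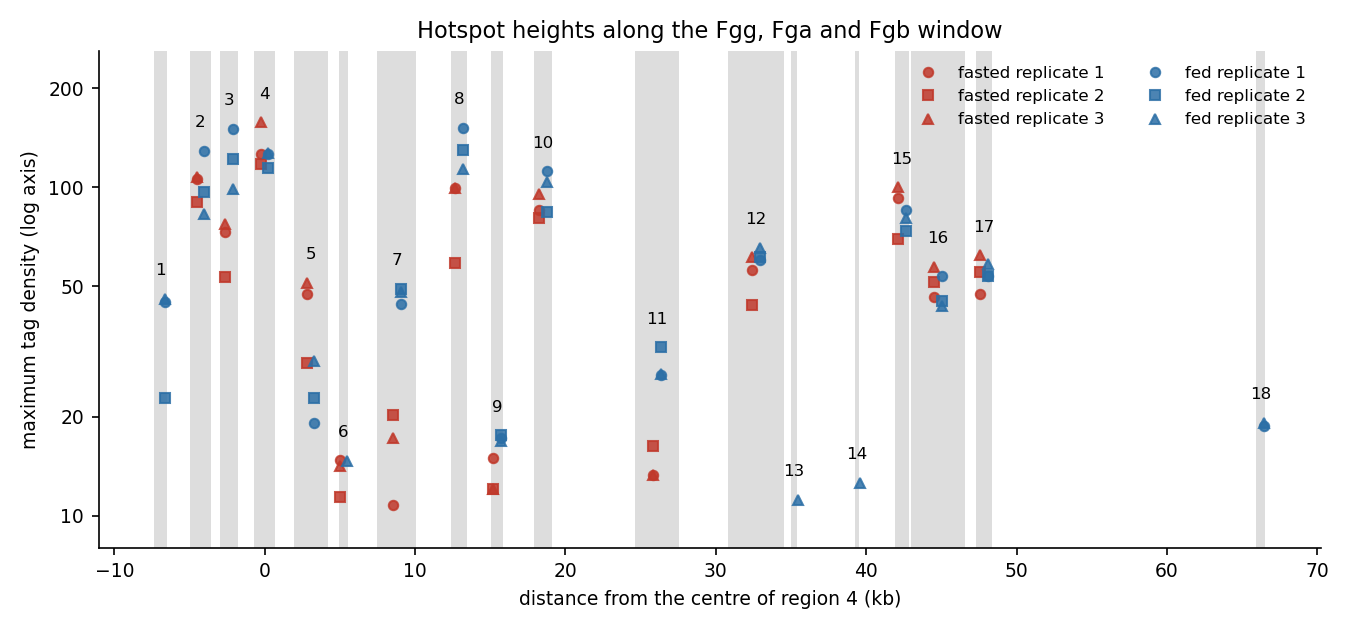
Maximum tag density (log axis) of every called region of the Fgg, Fga and Fgb window, against the distance in kb from the centre of region 4. Red marks are fasted and blue marks fed libraries, with 1 marker shape per replicate number, and grey bands show the width of each of the 18 regions. Regions 3, 7, 8 and 11 have lower red than blue marks, and region 1 has blue marks only.

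Fasted livers had lower density at 4 of the 13 shared regions (3, 7, 8 and 11), higher density at region 5, and differences too small to pass at the other 8. For this the heights were put on a log2(density + 1) scale, the median of each library over shared regions was set to 0, and limma was fitted on all 37044 shared regions (Benjamini-Hochberg adjusted p under 0.05). Of all shared regions 15.7% passed, 7.84% with lower and 7.89% with higher density in fasted livers. The window was picked with this contrast known, so nothing is read from the members' count beside these shares. The median log2 difference, fasted minus fed, was -0.12 over the 13 members and 0.03 over all shared regions.

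Region 7 (82818955 to 82821551) had the largest difference of the locus. Its height was 10.8, 20.3 and 17.3 in the fasted libraries, against 44.1, 49.1 and 47.8 in the fed libraries. All 3 fasted values stood below all 3 fed values, with means of 16.1 ± 4.87 in fasted and 47.0 ± 2.58 in fed livers (SD, n = 3 each). The log2 difference was -1.46 (SE 0.22), at the 1.01th percentile of all shared regions. This is a region of middling height, at the 61.3rd percentile of shared regions by mean height.

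Region 11 (82836088 to 82839031) lies farther right and was weaker still. Its height was 13.3, 16.4 and 13.3 in the fasted libraries, against 26.8, 32.6 and 27.0 in the fed libraries. The groups did not overlap, and the means were 14.3 ± 1.76 in fasted and 28.8 ± 3.28 in fed livers. The log2 difference was -0.89 (SE 0.21).

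Regions 3 and 8 are among the tallest sites of the locus and were also lower in fasted livers. Region 3 (82808496 to 82809695) reached 73.2, 53.3 and 77.5 in the fasted libraries, against 151, 121 and 98.6 in the fed libraries. Every fasted library stood below every fed library, with a log2 difference of -0.78 (SE 0.15). Region 8 (82823886 to 82824911) reached 99.3, 59.0 and 99.6 in the fasted libraries, against 152, 129.6 and 114 in the fed libraries. The groups did not overlap, but fasted replicate 2, the deepest fasted library, lay far below the other fasted libraries. The log2 difference of region 8 was -0.57 (SE 0.16), and it was -0.38 without fasted replicate 2, where the region no longer passed. It did not pass without fed replicate 1 (-0.48) or without fed replicate 2 (-0.56) either.

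Region 5 (82813391 to 82815647) was the member with higher density in fasted livers. Its height was 47.4, 29.2 and 51.2 in the fasted libraries, against 19.1, 22.9 and 29.5 in the fed libraries. As deposited, fasted replicate 2 stood just below fed replicate 3. These are the deepest libraries of their groups, and on the centred scale the groups were apart, at 0.46 to 1.03 in fasted and -0.37 to 0.33 in fed livers. The log2 difference was 0.86 (SE 0.21). It was 0.48 with the average in place of the maximum density, where the region did not pass.

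The tallest regions other than 3 and 8 differed little. Region 4 (82810764 to 82812173), the strongest site by its mean over all libraries, reached 126, 117 and 158 in the fasted libraries, against 127, 115 and 127 in the fed libraries. The groups overlapped as deposited, and on the centred scale the lowest fasted value (2.41) lay just above the highest fed value (2.39). The log2 difference was 0.18 (SE 0.12), which did not pass. Region 2 (82806481 to 82807908) reached 106, 89.99 and 107 in the fasted libraries, against 129, 96.7 and 82.9 in the fed libraries. The fed values spread on both sides of the fasted ones, and the log2 difference was 0.07 (SE 0.15). Region 10 (82829372 to 82830585) reached 85.1, 80.7 and 95.7 in the fasted libraries, against 112, 84.3 and 103 in the fed libraries. The groups overlapped, with a log2 difference of -0.12 (SE 0.14). Region 15 (82853374 to 82854347) reached 92.5, 69.5 and 99.9 in the fasted libraries, against 84.95, 73.8 and 80.6 in the fed libraries. These groups overlapped too, with a log2 difference of 0.19 (SE 0.14).

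The remaining shared members were of middling or low height. Region 9 (82826533 to 82827317), the weakest shared member, reached 12.0 to 15.04 in the fasted and 16.9 to 17.6 in the fed libraries. Its groups did not overlap, but the log2 difference of -0.31 (SE 0.21) did not pass. Region 16 reached 46.2 to 57.2 in the fasted and 43.5 to 53.7 in the fed libraries, and region 17 reached 47.4 to 62.1 in the fasted and 53.6 to 58.4 in the fed libraries. Their log2 differences were 0.19 (SE 0.16) and 0.06 (SE 0.16). On the centred scale the groups did not overlap at 5 members with fasted livers lower (3, 7, 8, 9 and 11) and at 2 with fasted livers higher (4 and 5). Over all shared regions 14.6% were apart with fasted livers lower and 16.8% with fasted livers higher, 31.4% in either direction.

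**Figure D2:**
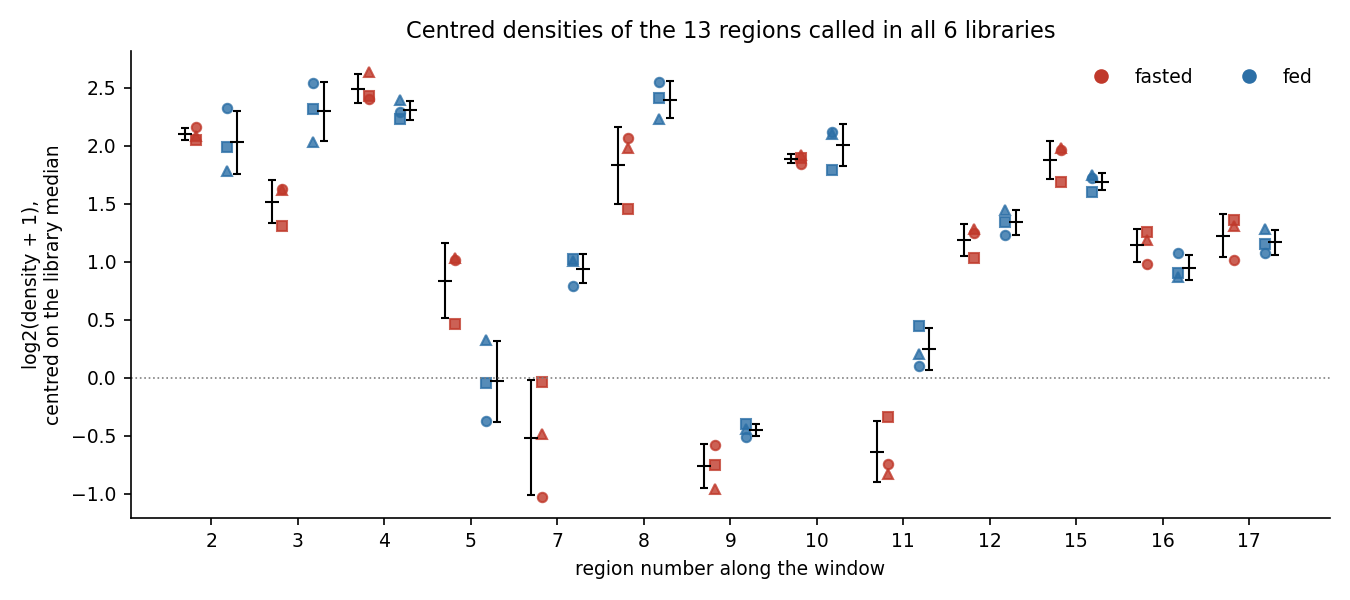
Centred log2(density + 1) of the 13 regions called in all 6 libraries, by region number, with fasted libraries (red) left of fed libraries (blue) and 1 marker shape per replicate number. Bars beside the points show the mean and SD of each group (n = 3), and the dotted line at 0 is the median of all shared regions of a library. The groups are farthest apart at region 7.

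**Figure D3:**
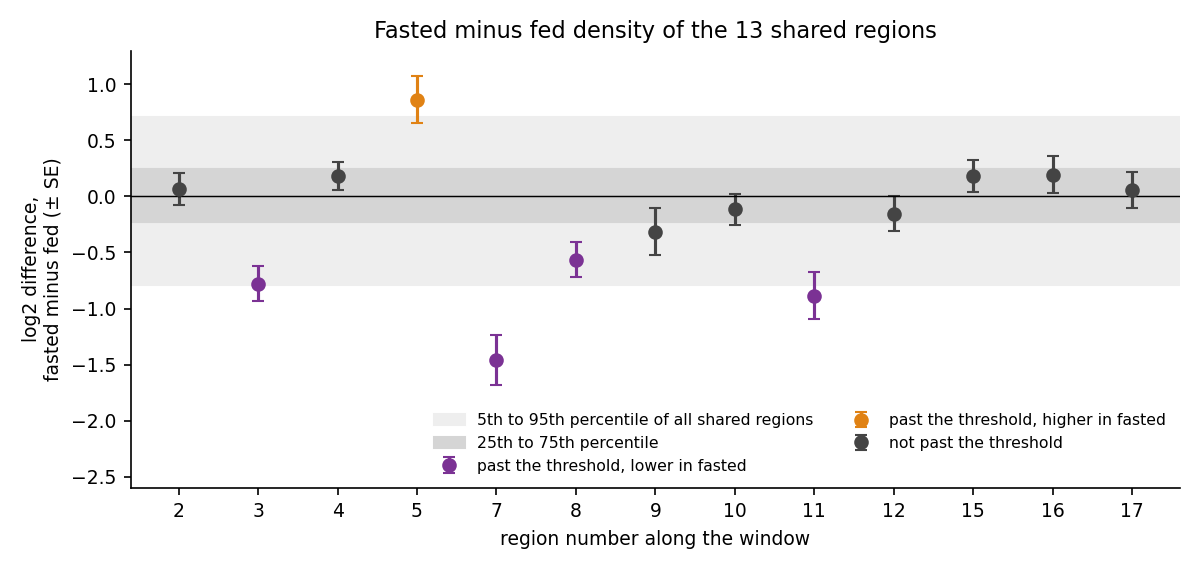
Log2 difference of fasted minus fed density of the 13 shared regions with its standard error, coloured by whether the region passed the limma threshold. Grey bands hold the central parts of all 37044 shared regions, from the 5th (-0.79) to the 95th percentile (0.71) and from the 25th (-0.22) to the 75th percentile (0.25). Region 7 lies at -1.46 and region 5 at 0.86.

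The broad site at region 12 (82842301 to 82845979) passed the threshold with its average density and not with its maximum. Its height was 55.9, 43.8 and 61.1 in the fasted libraries, against 59.9, 61.4 and 65.5 in the fed libraries, and the log2 difference was -0.15 (SE 0.16). The average density over its hotspots was 14.4, 12.6 and 15.8 in the fasted libraries, against 22.2, 22.5 and 20.8 in the fed libraries. The averages did not overlap, while the DNA covered was alike, at 3204 ± 284 bp in fasted and 3433 ± 31.0 bp in fed livers (SD, n = 3 each). With average densities in the fit the log2 difference of region 12 was -0.51 (SE 0.14), and the region then passed. It passed in only 1 of its 18 alternative fits, and the gap between average and maximum was not tested. The share of all shared regions with averages apart was not computed.

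Calls set apart the region at the left end of the locus. Region 1 (82804120 to 82804995) was called in all 3 fed libraries, at 44.9, 22.9 and 45.8, and in no fasted library. It was the only member called in 1 group throughout, and 1.57% of all union regions were called in this way in fed and 1.17% in fasted livers. A missing call leaves the density unknown. The weakest hotspots that were called in the window stood at 7.94, 8.49 and 8.17 in the fasted libraries, against 17.3, 13.1 and 11.2 in the fed libraries. Within 1 Mb on either side of it hotspots as weak as 1.97 to 4.24 were called in the fasted and 1.499 to 3.68 in the fed libraries. Whether the higher floor of calls inside the window bears on region 1 was not tested.

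The other members called in some libraries were weak. Region 6 (82816408 to 82816991) was called in all fasted libraries, at 14.8, 11.4 and 14.2, and in fed replicate 3 at 14.6. Region 18 (82877408 to 82878010) was called in fed replicates 1 and 3, at 18.8 and 19.2. Regions 13 (82846467 to 82846867) and 14 (82850702 to 82850969) were called in fed replicate 3 alone, at 11.2 and 12.6. That library was the deepest of the fed group, and the part of depth in these calls was not tested.

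The members that passed with lower density in fasted livers were not all neighbours. Regions 3, 7, 8 and 11 lie within the left 34.9 kb of the locus, which also holds regions 2, 4, 5 and 10. The values of regions 2, 4 and 10 overlapped as deposited, though region 4 stood apart on the centred scale, with fasted livers higher. Region 5 had a difference of opposite sign. From region 7 to region 12, every shared member had a log2 difference below 0. Among these, regions 9 (-0.31), 10 (-0.12) and 12 (-0.15) did not pass. Only 0.587 kb separates region 2 from region 3, and 1.07 kb separates region 3 from region 4. Regions 12 to 17, which span 17.5 kb to the right of region 11, had log2 differences of the maximum density from -0.15 to 0.19 where they could be fitted. The shared regions of the flanks within 1 Mb had log2 differences of -1.02 to 0.97 on the left, with 12 of 15 above 0, and -1.79 to 1.55 on the right, with 5 of 15 above 0. Together 17 of these 30 were above 0, as were 20093 of all 37044 shared regions.

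Members were also compared as ratios within a library, where the scaling of the library cancels. The pairs were chosen with the heights known, and each holds a member that passed above (3, 5, 7, 8 or 11). The groups did not overlap for 7 of 8 pairs, of which 3 are given here with the pair that overlapped. The share of all pairs of shared regions that stand apart was not computed, so nothing is read from this count. The ratio of the heights of region 3 over region 2 was 0.690, 0.592 and 0.721 in the fasted libraries, against 1.17, 1.26 and 1.19 in the fed libraries. Region 3 was thus the lower of the pair in every fasted library and the higher in every fed library. The ratio of region 7 over region 5 was 0.228, 0.696 and 0.337 in the fasted libraries, against 2.31, 2.15 and 1.62 in the fed libraries. This pair also changed places in every library. The ratio of region 8 over region 4 was 0.787, 0.503 and 0.631 in the fasted libraries, against 1.20, 1.13 and 0.894 in the fed libraries, so in fed replicate 3 region 4 was the taller. The ratio of region 8 over region 10 overlapped, at 1.17, 0.731 and 1.04 in the fasted libraries, against 1.36, 1.54 and 1.097 in the fed libraries.

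**Figure D4:**
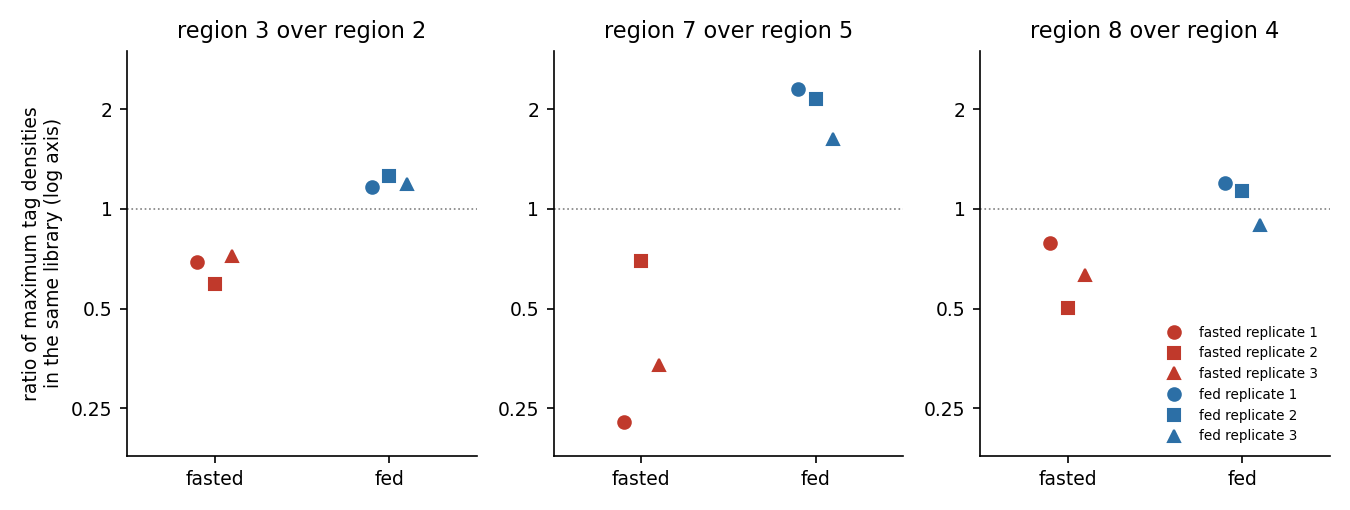
Ratio of the maximum tag densities of 2 members in the same library (log axis), with fasted libraries left of fed libraries and 1 marker shape per replicate number. The dotted line marks equal heights. For region 3 over region 2 and for region 7 over region 5 all fasted libraries lie below the line and all fed libraries above it.

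The order of the sites by mean height differed between the groups. In fasted livers region 4 stood first, at 134 ± 21.3 (SD, n = 3), followed by region 2 at 101 ± 9.72 and by regions 15, 10 and 8 at 87.3 ± 15.9, 87.2 ± 7.68 and 86.0 ± 23.3, which did not differ beyond their spread. Region 3 came next at 68.0 ± 12.9. In fed livers region 8 stood first, at 132 ± 19.1, followed by region 3 at 124 ± 26.1 and region 4 at 123 ± 6.997, and these did not differ beyond their spread. Region 2 at 103 ± 23.7 and region 10 at 99.9 ± 14.1 came next, overlapped each other and lay within the spread of region 3. This order of means did not hold in every fed library. In fed replicate 3 region 4 stood highest (127), and region 3 (98.6) stood below region 10 (103). Regions 3 and 8 together held 21.1%, 16.1% and 19.4% of the summed height of the 13 shared members in the fasted libraries, against 29.4%, 27.8% and 23.7% in the fed libraries. The summed height itself was 818, 698 and 912 in the fasted libraries, against 1029, 903 and 895 in the fed libraries, and these ranges overlapped.

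The lower end of the order moved as well. Regions 17, 12, 16 and 5 followed in fasted livers at 54.9 ± 7.34, 53.6 ± 8.89, 51.6 ± 5.49 and 42.6 ± 11.7, with neighbours within their spread. Regions 7, 11 and 9 closed the order there at 16.1 ± 4.87, 14.3 ± 1.76 and 13.1 ± 1.71. In fed livers region 15 stood at 79.8 ± 5.61, and regions 12, 17, 16 and 7 at 62.3 ± 2.85, 55.2 ± 2.73, 47.4 ± 5.52 and 47.0 ± 2.58. Regions 11, 5 and 9 were the weakest at 28.8 ± 3.28, 23.8 ± 5.27 and 17.3 ± 0.337. Region 7 was thus level with region 16 in fed livers and far below it in fasted livers.

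The hotspots of regions 3, 5, 7 and 11 covered lengths that did not overlap between the groups. The share of all shared regions with lengths apart was not computed, so nothing is read from the number of such members. In region 3 they covered 1022, 989 and 939 bp in the fasted libraries, against 1079, 1184 and 1061 bp in the fed libraries. In region 5 they covered 2166, 2257 and 2157 bp in the fasted libraries, against 593, 707 and 2150 bp in the fed libraries, so the left part of the region was listed in every fasted library and in fed replicate 3. In region 7 they covered 709, 1596 and 1425 bp in the fasted libraries, against 2151, 2348 and 2597 bp in the fed libraries. In region 11 they covered 424, 2223 and 996 bp in the fasted libraries, against 2329, 2439 and 2944 bp in the fed libraries. In regions 7 and 11 fasted replicate 2, and in region 5 fed replicate 3, the deepest libraries of the less covered group, came closest to the other group. In region 3 it was fasted replicate 1 (1022 bp) and not the deepest fasted library, replicate 2 (989 bp). The part of depth in these extents was not tested.

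**Figure D5:**
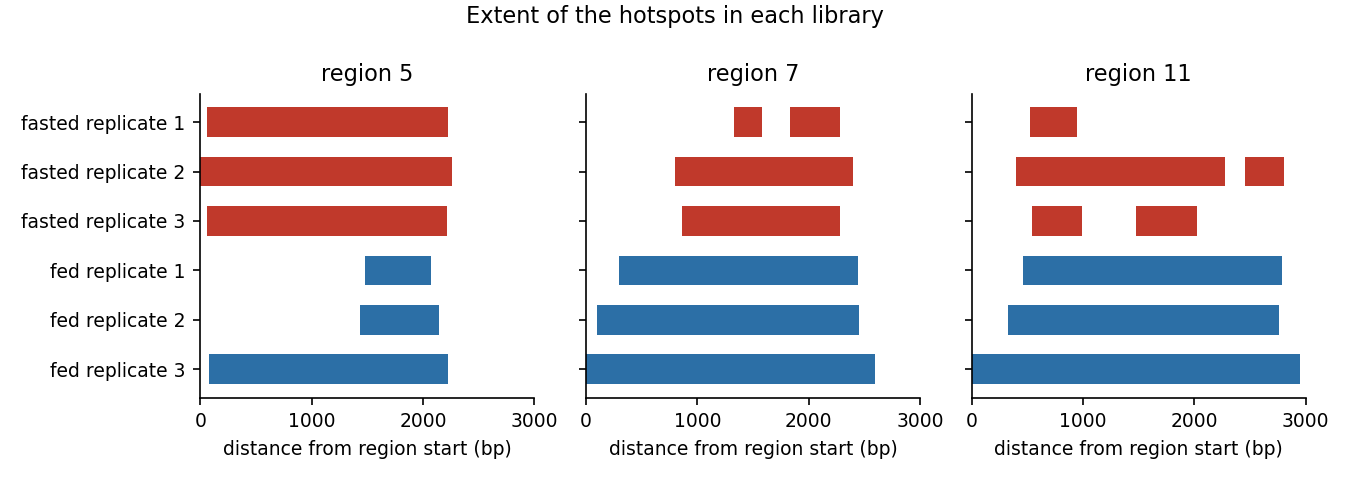
Extent of the hotspots of each library in regions 5, 7 and 11, in bp from the start of the region, with fasted libraries (red) above fed libraries (blue). A library with several bars had several hotspots in the region. Region 5 is longer in the fasted libraries and fed replicate 3, and regions 7 and 11 are longer in the fed libraries.

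The median SD within groups, pooled over both groups, was 0.15 on the centred log2 scale over the 13 members, which are taller than most sites, against 0.23 over all shared regions. This pooled SD ran from 0.11 to 0.36 among the members. Members were 38 to 594 tags high if 1 step of the density scale is 1 tag. Fasted replicate 2 and fed replicate 3 had the greatest depth, and relative depth ran from 1.24 to 1.90 in fasted and from 1.00 to 1.64 in fed libraries. No label or header states that 1 step is 1 tag.

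Some members varied together over the 6 libraries. Pearson's r of the centred densities was 0.956 between regions 7 and 11 and 0.947 between regions 3 and 8, and it was -0.862 between regions 5 and 7. The libraries share the group difference and their depth, so these values describe and do not test. The mean of the 13 members was 1.07, 1.06 and 1.14 in the fasted libraries, against 1.303, 1.29 and 1.31 in the fed libraries. Their median overlapped between the groups, at 1.25, 1.31 and 1.31 in the fasted libraries, against 1.23, 1.34 and 1.45 in the fed libraries. Among 25561 shared regions outside the window of at least the height of the weakest shared member, 5 were most like the mean over the 6 libraries. They lie on chromosome 19 (12769750 to 12771259, r = 0.998), on chromosome 9 (122543616 to 122546057 and 45739930 to 45741755, both r = 0.997), on chromosome X (135575278 to 135576228, r = 0.997) and on chromosome 13 (16407238 to 16409324, r = 0.996). Their log2 differences were -1.31, -1.01, -1.06, -2.19 and -2.93, a direction fixed by the choice, since the mean they resemble is lower in every fasted library.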

How the data were processed

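DNase-seq hotspots of 3 fasted and 3 fed liver libraries were analysed. Per the labels' protocols, isolated nuclei were digested (40 U/ml DNase I) and 100 to 500 bp fragments were kept. The submitters' processing notes name CASAVA 1.8 and mm9. No source used here names an aligner or a peak caller. Hotspots were called per library. The maximum and average tag densities, per the file headers, are a coverage signal, which the authors scaled per library. The score per hotspot (Zscore) and the p-value, per the file headers, were made by the authors and not used.

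Hotspots of chromosomes 1 to 19 and X were merged at 1 bp overlap. Each list held 49595 to 63368 of them. Maxima were whole multiples of 1 step per library (100% within 0.05 step), which gives relative depth if 1 step is 1 tag. Regions called in all 6 libraries were fitted with limma 3.58.1 (R 4.3.3, eBayes with trend) on log2(density + 1) centred on the library median, adjusted over all 37044 regions (threshold 0.05). The fit was tested on simulated data. Python 3.11.15, pandas 2.3.3, numpy 2.4.6 and matplotlib 3.10.9 made the rest.

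The members, lists, motifs and tests were chosen with earlier results of these data known. Named were all members, the regions next to the window and the 5 regions most like the members in pattern, at least as high as the weakest shared member. Lists of coagulation, acute phase and cell type marker genes were planned but not run, since no gene annotation of mm9 was used here. Alternatives were pseudocounts of 0.1 and 10, no centring, quantile normalization, average density, 1 hotspot of each library, missing values at the lowest density, the upper 50% by density, no trend, the replicate number as a block, merging within 150 bp and leaving out each library. Calls were also made with hotspots covering at least 50% of a region and with lists of equal length. Centring on the 13 members and depth as a covariate were added after seeing the data.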

Additional observations from a re-analysis of the deposited data

How the results depend on the processing

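Over 19 alternatives to the fit, 239 differences of shared members were available, and regions 3, 4, 5, 7, 8, 9, 10, 11, 12, 15 and 16 kept their sign in all of theirs. Regions 2 and 17, near 0, kept it in 15 and 14 of 19. Of 5 members past the threshold, 3 passed with 1 hotspot of each library (regions 7 and 11 were not in that fit) and 3 with missing values at the lowest density (regions 5 and 8 did not pass). Region 8 did not pass in 6 of its 19 alternatives and region 5 in 2. The median difference of -0.12 over the members was -0.24 after quantile normalization, 0.067 with 1 hotspot of each library, where 9 members were left, -0.03 with missing values filled in and -0.025 in the upper 50% by density; the cause was not tested beyond the change of members. Of all shared regions 5826 passed, 3679 with missing values filled in and 2941 in the upper 50%, where fewer regions were tested. With no centring 37.9% of those that passed were higher in fasted livers, against 50.1% with it. Leaving out each library gave 4199 to 5950 regions and 4 or 5 members. Deviations of libraries with the same number correlated at -0.067, -0.030 and -0.167. Libraries with different numbers were not compared, so these values do not settle whether replicates were paired. With the replicate block 5074 regions and 5 members passed. Members called in 1 group only numbered 1 to 2 on leaving out each library: region 18 joined region 1 without fed replicate 2, and region 6 without fed replicate 3. With 1 mismatch allowed the motif matches were 85 in place of 11. With depth as a covariate 5557 regions and 4 members passed, and region 8 did not. The differences of the 5 members were then -0.61 (region 3), 0.85 (region 5), -1.61 (region 7), -0.39 (region 8) and -0.96 (region 11). Missing calls have an unknown density, and how far depth limits each member was not tested beyond the covariate.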
